A study of Drosophila melanogaster with 2 samples.

Results

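The genes described here are 10 heat shock and chaperone genes of Drosophila melanogaster, of 13968 protein-coding genes in the annotation used: Hsp22, Hsp23, Hsp26, Hsp27, Hsp67Ba, Hsp67Bc, Hsp83, Hsf, Hsc70-4 and Hsp60A. They were chosen by name. For each of them, binding of the protein CG32772 was looked up within 500 bp of an annotated transcription start site (TSS), and separately in the gene and 5 kb on either side. The chromatin was that of entire embryos, 0 to 24 h old, from a transgenic fly strain labelled CG32772-GFP. The strain carries an insertion targeting CG32772 and expresses CG32772 fused to eGFP. The fusion protein and the DNA bound to it were recovered with an antibody against GFP, sequenced (ChIP-seq) and turned by the authors into lists of peaks on the dm6 assembly. There was 1 group with 2 biological replicates, and no other genotype, treatment or tissue was analysed here. Both libraries therefore share the transgene, the antibody and a mixture of all embryonic cell types and stages, and the sources used here do not say what drives the fusion protein.

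Heat shock proteins are chaperones, which bind unfolded proteins and keep them from aggregating or help them to fold. The small heat shock proteins hold unfolded proteins without using ATP, whereas the Hsp70, Hsp90 and chaperonin families use ATP to release or fold their clients. Transcription of the inducible genes is driven by the heat shock factor, encoded by Hsf, which binds repeated GAA blocks of alternating orientation called heat shock elements. At Drosophila heat shock promoters, GAGA factor bound to GAGAG repeats keeps the DNA open, and RNA polymerase II waits paused just after the start site. Several of the small heat shock genes are also switched on during normal development, without heat.

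The sequences below show what lay under the peaks. They were read from the reference genome, not from the libraries, and are written 5' to 3' along the strand of the gene. The first set holds the summit, the position of highest signal, with 50 bp on either side, for peaks found in both libraries. Only windows that overlap no annotated untranslated region (UTR) are shown, which leaves out that of the Hsp83 promoter. Capitals mark runs of at least 8 bases made only of A and T. The Hsp27 window is at chr3L:9383858-9383958 on the plus strand and the Hsp26 window at chr3L:9377474-9377574 on the minus strand. The window in the first part of the Hsp83 gene, in an intron, is at chr3L:3194224-3194324 on the plus strand. The Hsc70-4 window is at chr3R:15242468-15242568 and the Hsp60A window at chrX:11108237-11108337, both on the plus strand.
Hsp27 summit: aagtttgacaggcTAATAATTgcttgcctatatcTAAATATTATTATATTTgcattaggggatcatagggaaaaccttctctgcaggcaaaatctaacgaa
Hsp26 summit: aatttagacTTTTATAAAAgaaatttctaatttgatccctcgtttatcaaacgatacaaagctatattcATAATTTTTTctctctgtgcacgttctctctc
Hsp83 intron summit: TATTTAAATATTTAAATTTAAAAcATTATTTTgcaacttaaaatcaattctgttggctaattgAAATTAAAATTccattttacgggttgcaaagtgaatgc
Hsc70-4 summit: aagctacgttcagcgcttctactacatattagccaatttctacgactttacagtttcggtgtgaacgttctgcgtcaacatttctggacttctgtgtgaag
Hsp60A summit: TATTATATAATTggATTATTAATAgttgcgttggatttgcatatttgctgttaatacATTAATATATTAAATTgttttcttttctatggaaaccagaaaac

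The second set compares the 200 bp before the most upstream start site of 3 small heat shock genes, 2 with a peak there and 1, Hsp23, without. Capitals mark the heat shock element of 2 blocks (GAANNTTC or TTCNNGAA), GAGAG or its complement CTCTC, and the TATA sequence TATAAA or its complement. Hsp26 has a second, downstream start site, and the TATAAA that begins 28 bp before that one lies outside the stretch. The stretches are at chr3L:9383863-9384062 for Hsp27 and chr3L:9381682-9381881 for Hsp23, on the plus strand, and at chr3L:9377428-9377627 for Hsp26, on the minus strand.
Hsp27 upstream: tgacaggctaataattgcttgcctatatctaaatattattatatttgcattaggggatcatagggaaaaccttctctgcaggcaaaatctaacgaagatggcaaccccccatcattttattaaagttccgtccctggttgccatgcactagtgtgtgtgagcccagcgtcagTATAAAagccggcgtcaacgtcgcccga
Hsp26 upstream: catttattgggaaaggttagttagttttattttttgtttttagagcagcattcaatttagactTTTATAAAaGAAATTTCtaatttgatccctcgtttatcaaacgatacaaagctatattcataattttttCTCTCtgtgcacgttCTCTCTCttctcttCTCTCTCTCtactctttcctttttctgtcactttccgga
Hsp23 upstream: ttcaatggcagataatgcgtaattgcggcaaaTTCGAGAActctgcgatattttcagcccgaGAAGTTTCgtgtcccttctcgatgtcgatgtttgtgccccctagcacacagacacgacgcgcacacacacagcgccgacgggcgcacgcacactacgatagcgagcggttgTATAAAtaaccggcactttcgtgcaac

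CG32772 peaks were found at the promoters of 6 of the 10 genes: 3 small heat shock genes (Hsp27, Hsp26 and Hsp22), the Hsp90 gene Hsp83, the constitutive Hsp70 gene Hsc70-4 and the mitochondrial chaperonin gene Hsp60A. The promoters of Hsp23, Hsp67Ba, Hsp67Bc and Hsf had none. This count is from the main list, the stricter of the lists that the authors thresholded on both libraries jointly, which held 4699 peaks on the chromosome arms. Over all protein-coding genes 17.1% had a promoter summit in that list, beside 60.0% of the 10 genes, with an exact 95% binomial interval of 26.2 to 87.8% that covers counting error only. The interval treats the genes as independent random draws. Genes chosen by name, several of them neighbours, are not such draws, so it cannot serve to compare the 10 with all genes. In the thresholded list of replicate 1 alone, 5 of the 10 genes had a promoter summit, beside 12.9% of all genes. In that of replicate 2 the count was also 5, beside 14.1% of all genes. The same 5 genes were called in both libraries, all of the 6 but Hsp22, beside 10.8% of all genes. The genes were chosen with earlier results of these data known, so these shares are a description, and no test was made of them.

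**Figure D1:**
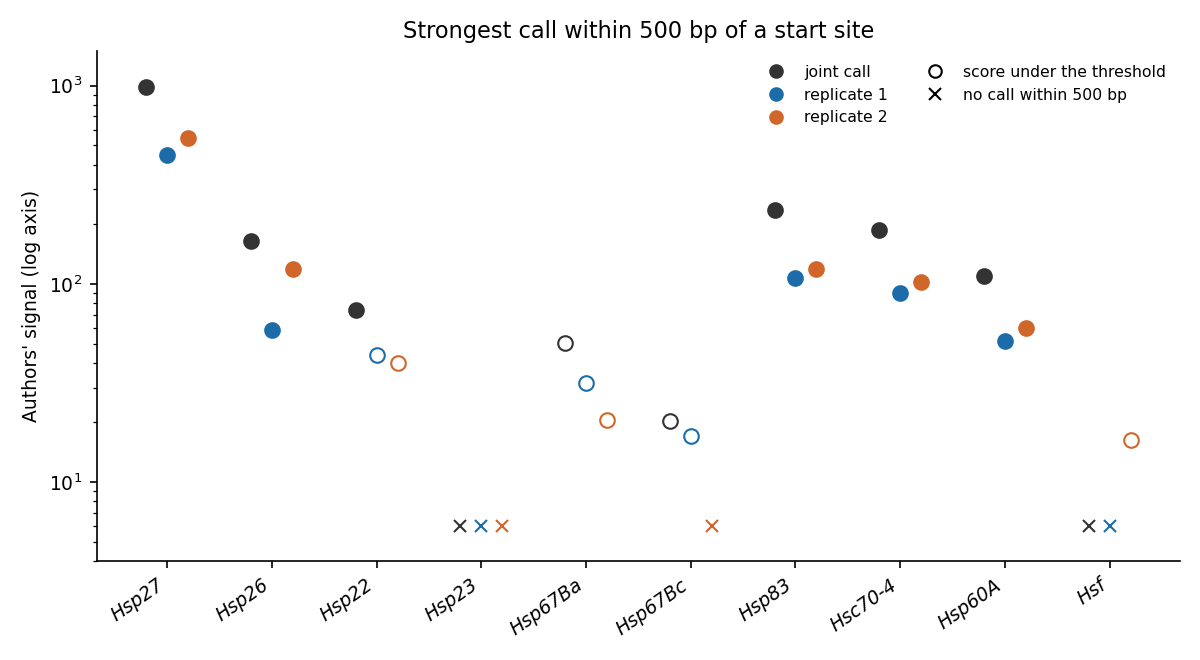
Authors' peak signal (log axis) at the promoter of each of the 10 genes in the joint list and in each library, with filled points for peaks in a thresholded list, open points for calls found only in the ranked list of all calls and crosses for no call. Hsp27 stands highest in all 3 lists (983, 445 and 546), and Hsp23 has no call of any strength.

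The small heat shock genes lie side by side on the left arm of chromosome 3, at the cytological position 67B. The 6 named here span chr3L:9371511-9385694, which is 14.2 kb, and with 5 kb on either side the locus covers 24.2 kb. The locus held a very strong peak at Hsp27, moderate or weak peaks at Hsp26 and Hsp22, but no thresholded peak at Hsp23, Hsp67Ba or Hsp67Bc. The main list had 3 summits in the locus, 0.124 per kb, beside 0.036 per kb over the arm, on which it had 1013. Replicate 1 had 2 summits, 0.0827 per kb beside 0.0223 over the arm, and replicate 2 had 3, 0.124 per kb beside 0.027. The 3 of replicate 2 were at Fdx1, Hsp26 and Hsp27, whereas those of the main list were at Hsp22, Hsp26 and Hsp27. Within the 14.2 kb of the 6 genes the main list had 3 summits and each library 2. These rates rest on 2 or 3 summits in the locus, and those of the arm were not adjusted for gene density. Among all calls of any strength the rates of the locus were closer to those of the arm. It held 31 calls in the joint ranked list (1.28 per kb, beside 0.894 over the arm), 19 in that of replicate 1 (0.786 beside 0.796) and 22 in that of replicate 2 (0.91 beside 0.56).

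Hsp27 (FBgn0001226, chr3L:9384063-9385694, plus strand) encodes a small heat shock protein found mainly in the nucleus. Its peak had a signal of 445 in replicate 1, at rank 64 of 3012 arm peaks, and of 546 in replicate 2, at rank 44 of 3537. In the main list the signal was 983, at rank 55 of 4699. The summits were 158, 144 and 155 bp before the start site in these lists, in intergenic DNA. The peak of the main list, at chr3L:9383779-9384060, ended just before the gene. Both libraries placed Hsp27 among their strongest peaks: it ranked 39 of 1891 main-list promoter peaks, and 97.9% of them were weaker.

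Hsp26 (FBgn0001225, chr3L:9376418-9377427, minus strand), a small heat shock protein of the cytoplasm, had the next strongest peak of the cluster. The signal was 58.6 in replicate 1 (rank 2165), 119 in replicate 2 (rank 900) and 164 in the main list (rank 1480). The summits in the 2 libraries lay 1 bp apart, 90 and 91 bp before the upstream of its 2 start sites. The main peak spanned chr3L:9377349-9377698. The signal in replicate 2 was 1.03 higher on the log2 scale. Over 2382 pairs of peaks shared by both libraries the median of this difference was 0.11, and 96.6% of pairs had a lower one, so the libraries placed the Hsp26 site alike but differed in its height more than at most sites.

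Hsp22 (FBgn0001223, chr3L:9372931-9374964, plus strand) encodes a small heat shock protein of mitochondria. Its peak in the main list was weak, with a signal of 74.1 at rank 3994, and only 11.3% of promoter peaks were weaker. The peak lay at chr3L:9373356-9373705, 466 bp before the downstream of its 2 start sites, in the 5' UTR of the longer transcript. Neither library had it in its own thresholded list. Both had a call there below the threshold, with a signal of 43.7 and a score of 776 in replicate 1 and a signal of 40.0 and a score of 583 in replicate 2, where the thresholded lists start at 830. This peak was thus called only from the libraries together, and it lay near the edge of the 500 bp window.

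The other 3 genes of the cluster had weaker calls or none. Hsp67Ba (FBgn0001227, chr3L:9377802-9379534) had calls within 500 bp of its start site with signals of 31.7 in replicate 1, 20.6 in replicate 2 and 50.6 jointly, and the joint score was 310. Hsp67Bc (FBgn0001229, chr3L:9371511-9372497) had a call of 17.1 in replicate 1, none in replicate 2, and one of 20.3 jointly. Hsp23 (FBgn0001224, chr3L:9381882-9382765), a small heat shock protein of the cytoplasm, had no call of any strength in any list. The gene lies between Hsp67Ba and Hsp27, and the nearest main-list summit to its start site was that of Hsp27, 2026 bp away. The lists hold no read counts, so for these genes only the absence of a call can be given, not how low the signal was.

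**Figure D2:**
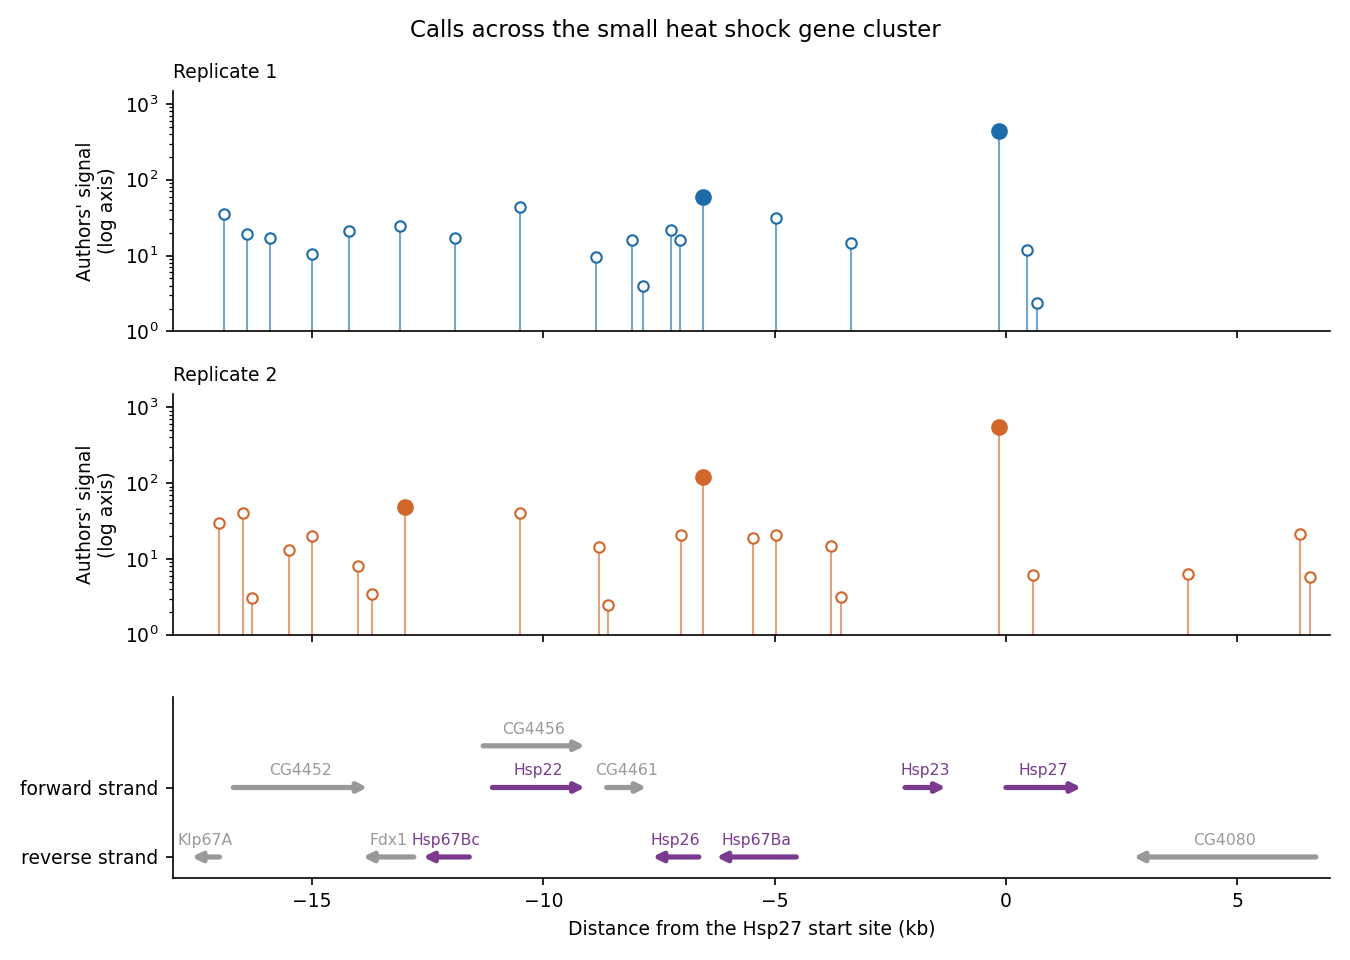
Authors' signal (log axis) of every call in each library along the 67B locus, filled where the call is in that library's thresholded list and open where it is below the threshold, against distance in kb from the Hsp27 start site, with genes as arrows (purple for the genes described here). Hsp27 (445 and 546) and Hsp26 (58.6 and 119) have filled points in both libraries, the Hsp22 calls at -10.5 kb (43.7 and 40.0) are open, and the Fdx1 peak (48.5) is filled in replicate 2 alone.

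Other genes at the locus are CG4456, CG4461, Fdx1, CG4452, CG4080 and part of Klp67A, with pseudogenes and an antisense RNA. CG4456, which carries the synonym Hsp67Bb in RefSeq, starts 225 bp from Hsp67Bc on the other strand and overlaps Hsp22, so the Hsp22 peak lies within both genes' spans. Replicate 2 alone had a thresholded peak at Fdx1, a gene for a mitochondrial ferredoxin, at chr3L:9370924-9371243 and 26 bp from its start site. Its signal was 48.5 in replicate 2 and 24.2 in a call below the threshold in replicate 1.

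Outside the cluster, Hsp83, Hsc70-4 and Hsp60A had promoter peaks in both libraries, and Hsf did not. Hsp83 (FBgn0001233, chr3L:3192969-3197059, plus strand) encodes the cytoplasmic Hsp90, which folds signalling proteins and is transcribed without heat as well as with it. The promoter signal was 107 in replicate 1 (rank 947), 119 in replicate 2 (rank 903) and 236 in the main list (rank 847). The summit lay 90 bp before the second start site, in the 5' UTR of the transcript from the first. A further peak, stronger in each list, was found in an intron of Hsp83 1058 bp after the second start site, at chr3L:3194158-3194364. There the signal was 218 in replicate 1 (rank 275), 186 in replicate 2 (rank 419) and 397 in the main list (rank 337). The strongest Hsp83 site was thus inside the gene, not at its promoter. Beyond the gene, a peak at chr3L:3199008-3199357, nearest to the start of gry, had signals of 93.3, 83.6 and 174 in the same order.

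Hsc70-4 (FBgn0266599, chr3R:15242687-15246614, plus strand) encodes the main cytoplasmic Hsp70 of unstressed cells, which also strips clathrin from vesicles. The signal at its promoter was 90.4 in replicate 1 (rank 1223), 102 in replicate 2 (rank 1190) and 188 in the main list (rank 1221). The summit was 169 bp before the most upstream of 6 start sites, in the 451 bp between Hsc70-4 and tefu, which is transcribed the other way. An intron of CG42404 downstream held a peak with signals of 73.7, 77.4 and 154. Its place, chr3R:15250543-15250892, is within 5 kb of Hsc70-4 but in another gene.

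Hsp60A (FBgn0015245, chrX:11108482-11112308, plus strand) encodes the Hsp60 chaperonin of the mitochondrial matrix. Its signal was 51.8 in replicate 1 (rank 2501), 60.1 in replicate 2 (rank 2510) and 109 in the main list (rank 2544). The main summit was 195 bp before the start site, in intergenic DNA, at chrX:11108112-11108461. Both libraries placed it among their weaker thresholded peaks. Scaling of the authors' signal is not stated, and the values of the joint list were higher than those of either library at each of these sites. They are therefore set side by side and not compared.

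Hsf (FBgn0001222, chr2R:18130303-18134634, minus strand), the gene of the heat shock factor itself, had no thresholded promoter peak. The only call within 500 bp of its start site was in the ranked list of replicate 2, with a signal of 16.3 and a score of 72. Within 5 kb beyond its 3' end the main list had a peak of 95.6 (rank 3017), 91 bp from the start of stau, which encodes an RNA-binding protein. Replicate 1 had it at 52.5 and replicate 2 had no peak there in its own list. A second main-list entry beside it, with a signal of 2.51, overlapped it, so this site counts as 2 summits.

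**Figure D3:**
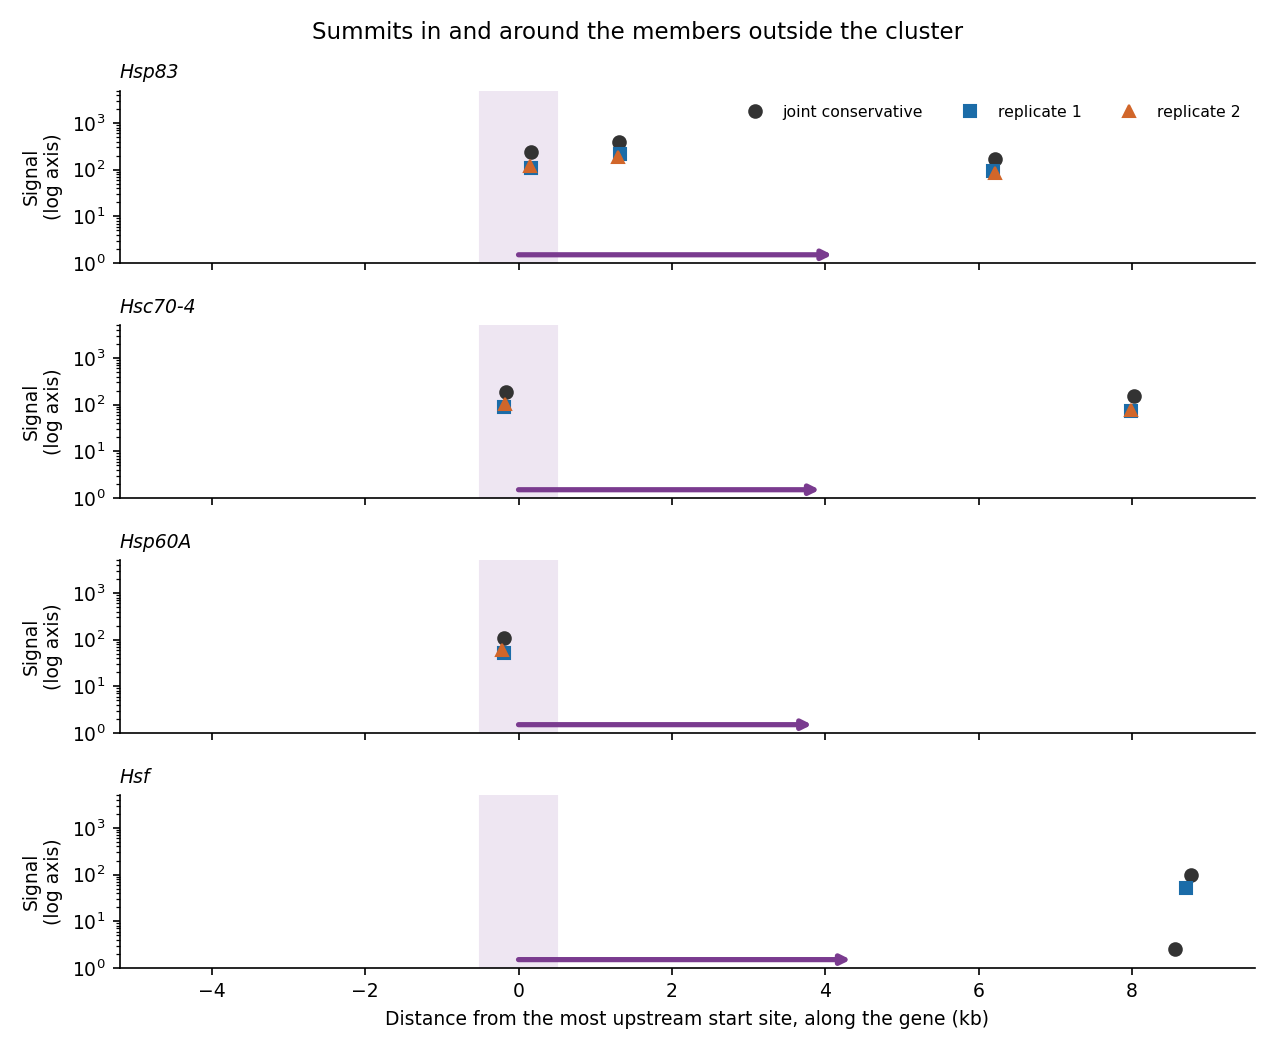
Authors' peak signal (log axis) in the joint list and in each library around Hsp83, Hsc70-4, Hsp60A and Hsf, against distance in kb from the most upstream start site along the gene, with the gene as an arrow and 500 bp around that start site shaded. The intron peak of Hsp83 (218, 186 and 397) stands above its promoter peak (107, 119 and 236), and the shaded band of Hsf is empty.

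With the gene and 5 kb on either side as the window, all 10 genes had a main-list summit, beside 45.3% of all protein-coding genes. In replicate 1 it was 9 genes, without Hsp67Bc, beside 36.1% of all genes. In replicate 2 it was also 9, without Hsf, beside 38.9%, and 8 genes had one in both libraries, beside 31.8%. These counts share summits: the 10 genes had 11 distinct summits in the main list and 9 in each library. In the main list Hsp23, Hsp67Ba and Hsp67Bc were counted through the peaks at Hsp27, Hsp26 and Hsp22, and Hsf through the peak at stau. In the libraries' own lists Hsp22 was counted through the Hsp26 peak and, in replicate 2, also through the Fdx1 peak, which was the one that counted Hsp67Bc there. Inside the gene itself, 2 of the 10 had a main-list summit, Hsp22 and Hsp83, beside 12.0% of all genes.

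The 2 libraries differed little at the other shared sites. Replicate 2 was higher by 0.29 on the log2 scale at the Hsp27 promoter, 0.15 at the Hsp83 promoter, 0.17 at Hsc70-4 and 0.22 at Hsp60A. At the Hsp83 intron the difference was -0.23, so replicate 1 was higher there. All 5 lay between -0.51 and 0.91, the 5th and 95th percentiles over the 2382 pairs, and the Hsp26 difference lay above that range. The summits of the 2 libraries at these 5 sites were 11 to 17 bp apart, and the median over all pairs was 16 bp. With 2 replicates of 1 group, no spread within the group beyond these pairs can be given.

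Among the 1891 promoter peaks of the main list the median signal was 132, with 25% below 90.1 and 25% above 232. Hsp27 and Hsp83 lay above 232. Hsc70-4 and Hsp26 lay between the median and 232, with 66.6% and 60.7% of promoter peaks weaker. Hsp60A lay below the median, with 37.7% weaker, and Hsp22 lay below 90.1. The 6 genes thus spread over the whole range of promoter peaks, with Hsp27 alone near the top.

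**Figure D4:**
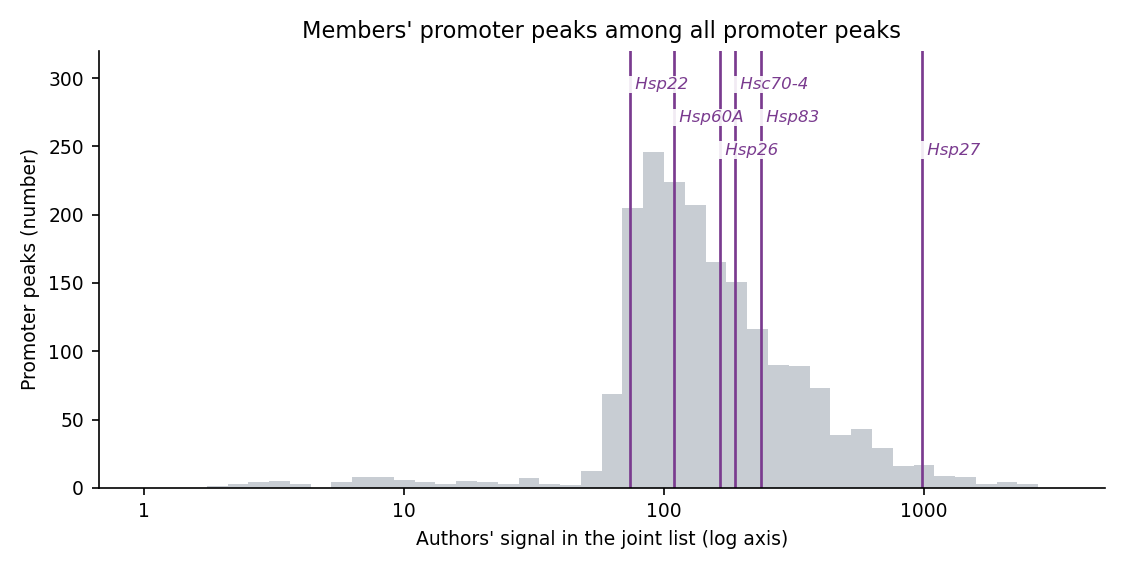
Number of promoter peaks of the main list by authors' signal (log axis), with a line at each of the 6 genes with a promoter peak. Hsp27 (983) lies far to the right of the median of 132, Hsp22 (74.1) and Hsp60A (109) to its left.

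Genes whose start site lies within 500 bp of that of a gene on the other strand, pointing away, had a promoter summit more often. It was 33.7% of 3815 such genes and 10.8% of 10153 others. Of the 10 genes, 4 have such a partner (Hsp22, Hsp67Bc, Hsp83 and Hsc70-4), and 3 of these had a promoter summit. At Hsp22, however, the upstream start site faces Hsp67Bc, and the summit was counted at the downstream start site, 466 bp away. That summit lay inside Hsp22, 1034 bp from the start of Hsp67Bc, and not between these genes. At Hsp83, too, the summit lay inside the gene, 90 bp before the second start site. It was not in the 478 bp between the first start site and that of CG14965. Only at Hsc70-4 did the summit lie between the gene and its partner. Of the 6 genes without such a partner, Hsp26, Hsp27 and Hsp60A had a promoter summit. The strongest peak of the group, at Hsp27, was therefore at a promoter without such a partner.

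The DNA under most of these summits was rich in A and T. Over all 4699 main-list summits the median A and T content within 50 bp of the summit was 66.3%, and 500 bp to the right it was 56.4%. A run of at least 8 A or T bases occurred in 74.8% of summit windows and in 49.3% of those to the right. The Hsp22 window had 85.1%, above 99.5% of summits, and a run of 30 bases. The Hsp60A and Hsp83 intron windows had 77.2% each, with runs of 16 and 23 bases. Hsp26 had 71.3% with a run of 10, and Hsp27 had 66.3%, the median of all summits, with a run of 17. Except for that of Hsp22, whose window is not shown, these runs can be read in the capitals of the first set of sequences. The Hsc70-4 window, with 57.4%, and the Hsp83 promoter window, with 51.5%, had no run of 8. A and T content did not order the peaks by height, since Hsp22 had the highest content of the 7 windows and the lowest signal.

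**Figure D5:**
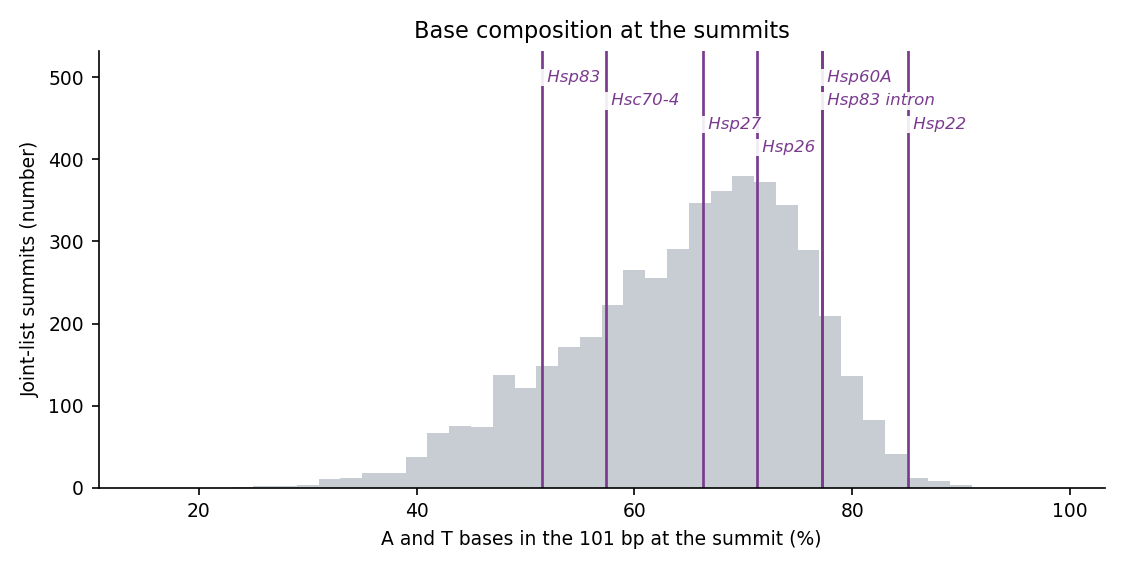
Number of main-list summits by A and T content (percent) within 50 bp of the summit, with a line at each of the 7 sites at or in the 6 genes. They run from 51.5% at the Hsp83 promoter to 85.1% at Hsp22, around a median of 66.3% over all summits.

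A and T content in the 250 bp before the start sites was averaged over all start sites of a gene. For genes with several, such as Hsc70-4 with 6 and Hsp60A with 2, it is thus not that of the promoter with the peak alone. It was 48.8% at Hsp23 and 50.4% at Hsp67Ba, the lowest of the 10 genes, and neither had a promoter summit. Hsp27 had 57.2%, Hsp67Bc 58.4%, Hsp22 59.0%, Hsp83 61.2%, Hsc70-4 63.1%, and Hsp26 and Hsf 66.0% each. Hsp60A was highest with 68.2%. Over all genes the medians were close, 63.0% for the 2383 with a promoter summit and 62.0% for the 11585 without, so this content did not separate the 2 classes of genes.

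Matches to known promoter elements were counted on both strands in the 250 bp before any start site of a gene. They describe letters and are not binding sites. The heat shock element of 2 blocks (GAANNTTC or TTCNNGAA) occurred at 7 of the 10 genes, all but Hsp27, Hsp67Ba and Hsf, and at 16.9% of all genes. At Hsp60A the only match lay before the internal start site, not before the one with the peak. In 500 bp it occurred at 9 of the 10, and at 30.0% of all genes. The element of 3 blocks, GAA, its complement TTC and GAA again with 2 free bases between blocks or the reverse of this, occurred at 1 of the 10, Hsc70-4 before internal start sites, and at 0.473% of all genes. The summit windows, 50 bp on either side, held the 2-block element in 4.94% of all 4699 cases and the 3-block element in 1. Of the 7 summit windows at or in the 6 genes, those of Hsp26, the Hsp83 promoter and Hsc70-4 each held 1 match to the 2-block element, and none held the 3-block element.

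GAGAG, the letters of GAGA factor, occurred at 4 of the 10 genes (Hsp22, Hsp23, Hsp26 and Hsc70-4) and at 32.4% of all genes, with 6 matches at Hsp26, of which some overlap. At Hsc70-4 it lay before internal start sites only. TATAAA occurred at 8, all but Hsp67Ba and Hsf, and at 48.6% of all genes. TATCGATA, the letters of the replication-related element, occurred at 1, Hsp83, and at 8.9% of all genes. In summit windows over the whole list the shares were 10.6%, 19.7% and 1.21%. Of the 7 windows at or in these genes, that of Hsp26 held GAGAG and TATAAA, and the others held none of these letters. In the 250 bp, Hsp27, with the strongest peak, had TATAAA alone, whereas Hsp23, with no call, had 2 matches to the 2-block element and 1 each to GAGAG and TATAAA. Hsp26 had a peak and all 3 elements, as the capitals of the second set of sequences show. This contrast was recorded for 250 bp only. In 500 bp, 9 of the 10 genes had the 2-block element, and whether Hsp27 was among them was not recorded.

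The other chaperone genes were taken from a list of 50, of which 48 were matched to the annotation. Of the 48, 11 had a main-list promoter summit, which is 22.9%, with an exact 95% interval of 12.0 to 37.3%, beside 17.1% of all genes. This interval, too, treats genes chosen by name as independent draws and does not serve as a comparison. Replicate 1 had 8 (16.7%, beside 12.9% of all genes), replicate 2 had 7 (14.6%, beside 14.1%), and 5 had one in both (10.4%, beside 10.8%). By the classes of that list, it was 2 of 12 Hsp70 genes, 2 of 9 Hsp90 and cochaperone genes, 3 of 7 J domain genes and 3 of 11 chaperonin genes. It was also 1 of 3 others and none of 6 other genes listed as small heat shock genes, CG4456 among them. In the gene and 5 kb on either side it was 24 of the 48 in the main list (50%, beside 45.3% of all genes). There, 18 had a summit in replicate 1 (37.5%, beside 36.1%), 18 in replicate 2 (37.5%, beside 38.9%) and 13 in both (27.1%, beside 31.8%).

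The strongest of them was Lon, a mitochondrial protease with chaperone activity, with signals of 365 in replicate 1, 344 in replicate 2 and 716 in the main list. The start site of PIG-F was nearer to that summit. The J domain gene mrj had 299, 306 and 605, and the mitochondrial Hsp70 gene Hsc70-5 had 153, 81.7 and 242. Gp93, the Hsp90 of the endoplasmic reticulum, had 97.4, 74.2 and 175, and the chaperonin subunit gene CCT3 had 55.1, 55.2 and 105, with CG10324 nearer to its summit. These 5 were called in both libraries. In the main list DnaJ-H had 184, CCT8 124, Hsp110 119, CCT6 89.2 and Cdc37 68.3, and each of these was missing from the thresholded list of at least 1 library. As at CCT3, another gene's start site was nearer to the summit at CCT8 (CG30349) and CCT6 (CG8944), so this held for all 3 chaperonin genes with a peak. None of the other chaperone genes reached the signal of Hsp27.

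The inducible Hsp70 genes had no thresholded promoter peak in the main list or in either library. Hsp70Ba had calls of 30.1 jointly and 21.4 in replicate 1, and Hsp70Ab one of 10.7 in the joint ranked list alone. Hsp70Aa, Hsp70Bb, Hsp70Bbb and Hsp70Bc had no call of any strength. These copies are nearly identical, and how reads that match several of them were treated is not given in the sources used here, so their values are uncertain. Hsp68, a related inducible gene, had a single call of 21.4 in replicate 2. The Hsp70 gene of the endoplasmic reticulum, Hsc70-3, had calls below the threshold, of 17.9, 33.0 and 48.1 jointly.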

How the data were processed

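Chromatin from embryos was sonicated, per the labels, to 200 to 800 bp. The deposited files are peak lists for each library and for both jointly, ranked (every call) and thresholded, made per the labels on dm6 and, per the deposited descriptions, with a control alignment. Which aligner and caller were used is not given in the sources used here. Signal is a value of the authors with unstated scaling, and described and ranked peaks within a list. Between the libraries it was also set side by side at shared peaks, as a log2 ratio read against that of all shared peaks. The score per peak is also the authors' and is at least 830 in the thresholded lists. Depth is unknown, since no reads were analysed. The joint ranked list has 8 columns per peak that name no sample and were not used.

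The main list had 4746 peaks, and 47 off the chromosome arms were left out. The lists of replicates 1 and 2 had 3048 and 3562 peaks, 3012 and 3537 of them on the arms. Summits were the start plus the deposited offset. Gene models were from Ensembl release 115 (BDGP6.54) and sequences from RefSeq's release of that assembly. Of 50 other chaperone genes, 44 matched by symbol and 4 by a RefSeq synonym, while Hop and Hsbp1 were not used. Peaks of the 2 libraries were paired where they overlapped by at least 1 bp. Counting was tested on simulated peaks and was run in Python 3.11.15 with numpy 2.4.6, pandas 2.3.3 and scipy 1.17.1, with figures from matplotlib 3.10.9. The members, gene lists and motifs were chosen with earlier results of these data known. Named are the 10 genes, genes at the 67B locus, genes nearest to a summit, and up to 10 other chaperone genes by signal. The Hsp70 copies, Hsp68 and Hsc70-3 were named after their values were seen.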

Additional observations from a re-analysis of the deposited data

How the results depend on the processing

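No paired analysis was possible because there is 1 group. With 1 library in place of both, the count of the 10 genes with a promoter summit was 5 with either (6 in the main list). The count with a summit in the gene or 5 kb around it was 9 with either (10). Summits at the 67B locus were 2 to 3 (3), but the 3 of replicate 2 included Fdx1 and not Hsp22. All genes with a promoter summit were 1797 to 1966 (2383) and the other chaperone genes 7 to 8 (11). Counts that moved by more than 1.5 times were the genes with a summit in the gene without any flank (2 in place of 10), all genes in the upper 50% of the list by signal (1517), and the other chaperone genes without replicate 1 (7 in place of 11), in that upper 50% (7) and within 200 bp of a start site (6). The other joint list, 1000 bp promoters, any overlap with the promoter, and counting summits within 1 kb once each left 6 of the 10 genes, the upper 50% left 4, and 200 bp left 5. Hsp22 lost its promoter call in 4 of 8 settings and Hsp60A in 1, the upper 50%. The share of the 10 genes with the 2-block heat shock element was 70.0% in 250 bp and 90.0% in 500 bp. Without read counts, a missing call cannot be told apart from one missed for depth.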
